A study of Caenorhabditis elegans with 4 samples.

Results

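LAG-1 is the DNA-binding transcription factor of the CSL family in Caenorhabditis elegans, and the gene lag-1 that encodes it lies on chromosome IV. The block described here is the dense group of LAG-1 ChIP-seq peaks on that chromosome from 6086914 to 6123959 (ce10), 37.0 kb long, which carries the working name of the lag-1 locus. Its members are all summits of the 3 deposited LAG-1 peak lists whose peak lies wholly inside those limits. They number 275 of the 5245 summits in the series, with 92 of 1965 in replicate 1, 54 of 1780 in replicate 2 and 129 of 1500 in replicate 3. The limits were themselves drawn from these lists, so the members were chosen by the measured positions of the peaks. Their counts, positions and heights are a description, and none of them was tested.

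Without a Notch signal, CSL proteins can hold target genes off, and with one they form a complex with the intracellular part of the receptor and the coactivator SEL-8 and turn those genes on. In the C. elegans germline the receptor is GLP-1, and the pathway keeps germ cells at the distal end of the gonad in the stem cell state. In somatic cells of the developing reproductive system the receptor LIN-12 acts through the same factor, and lag-1 has been described there as positively regulated by LIN-12 activity.

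All libraries came from 1 kind of sample. The 3 ChIP samples were immunoprecipitated for LAG-1 from animals of the Bristol strain, synchronised by bleaching and grown to the fourth larval stage on NA22 bacteria, and the fourth sample is input DNA with the same strain label. Germline is the labelled cell type, but the extraction protocol describes lysates of animals. Whether the signal came from germ cells alone was not tested. The series describes the ChIP replicates as independent biological replicates. No treatment or mutant was compared, and the input served only as the authors' control for each list. The ChIP libraries of replicates 1, 2 and 3 had 5074266, 5441972 and 3475891 tags. After the authors kept 1 tag per position, 784774, 509715 and 1305672 of them remained. These are 15.5%, 9.37% and 37.6%, so most ChIP tags were removed, and the share differed between replicates.

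The files hold positions on ce10 and no gene names, and the gene table used here is of another build, WBcel235. It served only for the order of genes on chromosome IV. In that order the protein-coding neighbours of lag-1 are cpi-1, which encodes a cystatin-type inhibitor of cysteine proteases, and K08B4.7 on one side. On the other side they are nssp-39 and then zen-4, which encodes a kinesin of the central spindle in dividing cells. Which summits lie in lag-1, in its introns or in a neighbouring gene was not analysed here, and the assignment of the block to lag-1 rests on its name. The sources used here do not say whether the animals carried copies of lag-1 besides the endogenous gene. The file headers name the ChIP libraries with the word Biotag, which the labels do not explain.

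Peaks were dense in the left 25 kb of the block and sparse to the right of it. Replicate 1 had 59 peaks in the block, replicate 2 had 36 and replicate 3 had 55. The 92, 54 and 129 summits in them correspond to 2.48, 1.46 and 3.48 summits per kb. Replicate 3 thus had the most summits here, although it had the fewest in the genome. By peaks, replicate 1 had the most in the block. The lists were called with fragment lengths of 77, 125 and 55 bp, and the part of this in the summit counts was not tested. The block held 27.7% of all chromosome IV summits in replicate 1, 17.4% in replicate 2 and 44.9% in replicate 3. Of all summits in the genome it held 4.68%, 3.03% and 8.6%, on 0.0412% of the effective genome size. Its first 25 kb contained 75, 49 and 118 of the summits, and its last 12 kb contained 17, 5 and 11. Peaks covered 58.6%, 53.3% and 66.7% of the left part, and 20.4%, 9.57% and 8.87% of the right part. All 3 replicates were therefore denser on the left. The split at 25 kb was not a planned setting, so this contrast is a description only.

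**Figure D1:**
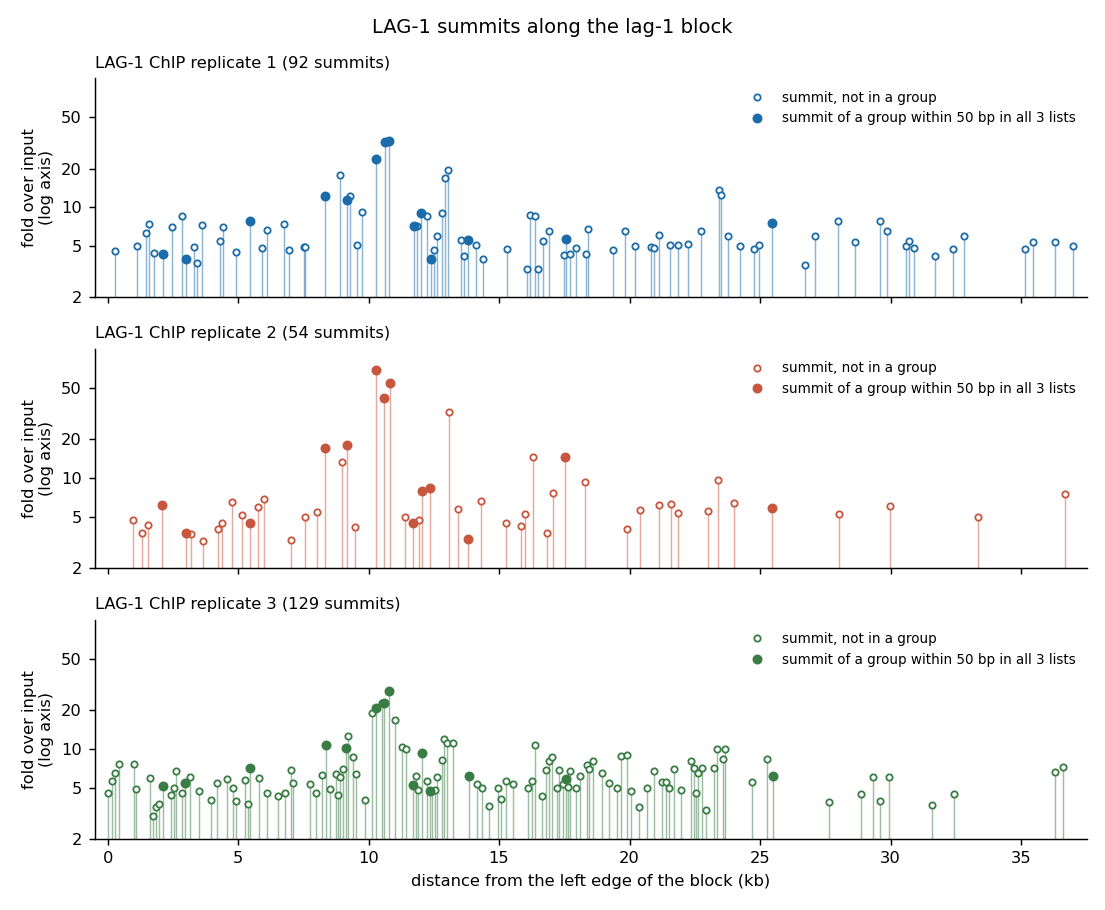
Fold over input on a log axis for each LAG-1 summit, against the distance from the left edge of the block in kb, in 3 panels for the 3 replicates. Filled points belong to the 14 summit groups that recur within 50 bp in all 3 lists, open points do not, and in each panel the highest points lie between 10 and 11 kb.

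Cover was densest between 10 and 15 kb from the left edge. There, peaks covered 81.2%, 78.2% and 79.5% of the segment in replicates 1, 2 and 3. The first 5 kb were covered to 40.0%, 37.2% and 61.5%, so replicate 3 stood above the other two there. Between 15 and 20 kb the cover was 63.4%, 47.6% and 79.2%, again with replicate 3 highest. Between 30 and 35 kb it was 18.8%, 4.06% and 4.56%, and only replicate 1 had more than 2 summits in that segment, with 6. Over the whole block 67.9% of positions lay under a peak of at least 1 list, and 23.1% lay under peaks of all 3. The longest stretch with no peak in any list was 1651 bp, from 6120368 to 6122018, near the right edge.

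**Figure D2:**
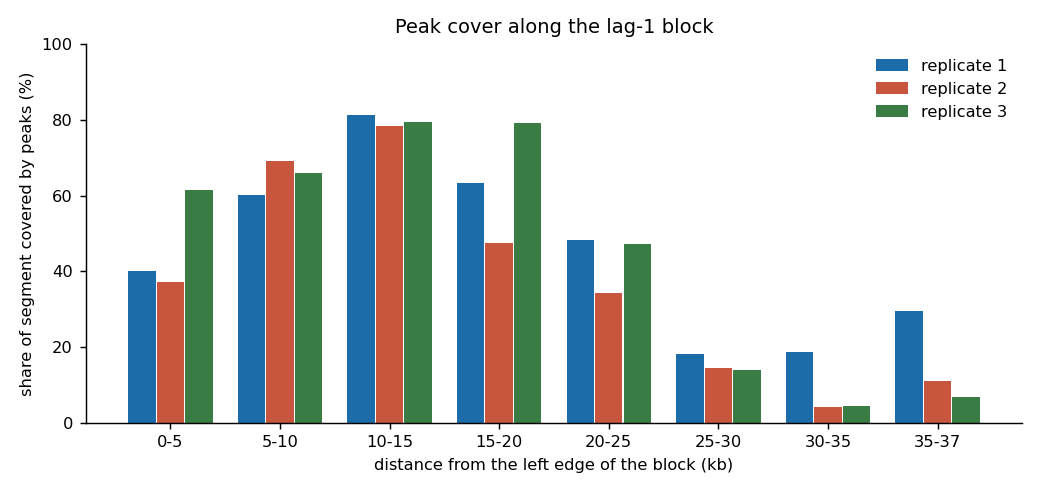
Share of each 5 kb segment of the block (the last is shorter) that peaks cover, in percent, with 1 bar for each replicate. Cover is highest between 10 and 15 kb, at 81.2%, 78.2% and 79.5%, and is below 30% in all replicates from 25 kb on.

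The edges of the block differed slightly between lists. On the left, the first peak began at 6087162 in replicate 1, with a fold of 4.61. In replicate 2 it began at 6087800, with a fold of 4.74, and in replicate 3 at 6086914, with a fold of 6.47. On the right, the last peak ended at 6123959 in replicate 1, with a fold of 5, at 6123711 in replicate 2, with 7.53, and at 6123531 in replicate 3, with 7.23. The folds at both edges were thus between 4.61 and 7.53, far below the block's highest. Outside the left edge the nearest peak was 380 kb away in replicate 1, 5.33 kb away in replicate 2 and 209 kb away in replicate 3. The folds of these were 3.59, 4.68 and 3.75. Outside the right edge the nearest peak began 86.1 kb away in each of the 3 lists, with folds of 6.25, 5 and 2.67. A gap of 5 kb on each side follows from how the block was drawn. The left gap in replicate 2 was little longer than that, and the other gaps were all above 86 kb.

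Most summits in the block were of moderate height. The fold, as the authors' peak caller gave it, compares the stack of ChIP tags at a summit (the pileup) with the local background of the input. In replicate 1 it ran from 3.33 to 32.5 with a median of 5.50. Replicate 2 ran from 3.27 to 69.0 with a median of 5.57, and replicate 3 from 3 to 28.3 with a median of 5.78. The medians of the 3 lists were close, and the highest values were not. Outside the block the median folds were 4.67, 4.68 and 4.5. Summits among the highest 10% of their own list by fold made up 19.6%, 20.4% and 21.7% of the block's summits. In absolute numbers these were 18, 11 and 28 summits. The lowest folds in the block, 3.33, 3.27 and 3, were above those of the whole lists, 2.13, 2.09 and 2.15. Over a low input background, a summit needs a higher fold to pass the limit on the false discovery rate. The part of this in the block's median folds and shares was not tested.

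High summits were grouped in a short stretch. A fold of at least 10 was reached by 11 summits of the block in replicate 1, 9 in replicate 2 and 17 in replicate 3. Of those, 9, 7 and 14 lay between 8 and 14 kb from the left edge, limits that were not planned settings. The block's share of all summits with such a fold was 9.82%, 6.87% and 32.1% in replicates 1, 2 and 3. The highest summit of the block was the 4th highest of its list in replicate 1, the highest in replicate 2 and the 2nd highest in replicate 3. It lay at 6097694, 6097206 and 6097702 in these lists, so replicates 1 and 3 placed it within 8 bp of each other and replicate 2 placed it elsewhere in the same peak.

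Summits were compared between lists by position. A summit group was formed from 1 summit of each list where the 3 lay within 50 bp. The block held 14 such groups, with spans from 22 to 50 bp and a median of 32.5 bp. Summits in these groups were 15.2% of the block's summits in replicate 1, against 19.6% over the whole list. In replicate 2 the shares were 25.9% against 21.7%, and in replicate 3 they were 10.9% against 25.7%. The share of recurring summits was thus somewhat below that of the whole list in replicate 1, somewhat above it in replicate 2 and less than 0.5 times it in replicate 3. Each group takes 1 summit of every list, so the number of groups is the same for all lists, 14 in the block and 386 in the series. The shares therefore differ between replicates only through their numbers of summits. Of the 14 groups, 12 lay in the first 15 kb and 2 further right.

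Pairs of lists were compared in the same way. Of the replicate 1 summits in the block, 30.4% lay within 50 bp of a replicate 2 summit, against 36.7% over the whole list. For replicate 1 summits near one of replicate 3 the shares were 48.9% in the block and 43.2% over the list. Replicate 2 summits lay near one of replicate 1 in 48.1% against 40%, and near one of replicate 3 in 55.6% against 30.7%. Replicate 3 summits lay near one of replicate 1 in 36.4% against 57.9%, and near one of replicate 2 in 23.3% against 38.1%. Replicate 2 was therefore above its list in both pairs and replicate 3 below it in both. Summits are dense in the block, and positions within 50 bp of one made up 24.8% of it for replicate 1, 14.7% for replicate 2 and 34.2% for replicate 3.

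The 3 highest groups lay next to each other in 1 wide peak. This peak ran from 6096548 to 6099585 in replicate 1, from 6096542 to 6099462 in replicate 2 and from 6096583 to 6099056 in replicate 3. It held 11, 8 and 13 summits, the most of any peak of the block in each list. Neighbouring groups in it were 305 and 191 bp apart, by the median of their summits.

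The first of the 3 groups had its summits at 6097208, 6097206 and 6097186 in replicates 1, 2 and 3. The pileups there were 141, 206 and 102 tags and the folds 23.7, 69.0 and 20.6, a mean of 37.8 ± 27.1 (SD, n = 3). Replicate 2 stood far above the other two in fold, and without it the mean was 22.1. The input background under this group was 5, 2.00 and 4 tags, so that the list with the highest fold also had the lowest background. All 3 backgrounds came from the same input, sampled down to the size of each ChIP library. The sampling error of so few tags, and its part in the difference in fold, was not computed. Relative to the genome-wide ChIP level, which uses no local input, the pileups were 210, 291 and 128 times higher, and replicate 2 was again first. With 1 tag kept per position and strand a pileup has an upper limit, of which these had reached 91.6%, 82.4% and 92.7%, and the part of this limit in the difference between lists was not tested.

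The second group had its summits at 6097533, 6097511 and 6097509, with pileups of 111, 167 and 85 tags. Its folds were 32.3, 42.0 and 22.6, a mean of 32.3 ± 9.70 (SD, n = 3). The third group had its summits at 6097694, 6097722 and 6097702, with pileups of 129, 170 and 88 tags. Its folds were 32.5, 54.7 and 28.3, a mean of 38.5 ± 14.2 (SD, n = 3). In both, the order of the lists was the same, with replicate 2 highest and replicate 3 lowest. The upper limit of the pileup, 154, 250 and 110 tags, has this order too. The second group stood at 72.1%, 66.8% and 77.3% of it and the third at 83.8%, 68% and 80%. The means of the 3 groups differed by less than the SD of any of them, but that SD is a spread between lists. Within each list the third group was above the second in fold and in pileup, in replicate 1 by little in fold. The first group had the highest pileup of the 3 in every list. Its fold was the highest in replicate 2 and the lowest in replicates 1 and 3.

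A pair of groups just to the left formed the next level. One had its summits at 6095251, 6095242 and 6095265, with pileups of 28, 33 and 25 tags and folds of 12.2, 17 and 10.7, a mean of 13.3 ± 3.30 (SD, n = 3). The other had its summits at 6096093, 6096074 and 6096058, with pileups of 33, 35 and 24 tags and folds of 11.3, 18.0 and 10.1, a mean of 13.1 ± 4.26 (SD, n = 3). Their ranges over the 3 replicates overlapped. The lowest fold of the 3 high groups, 20.6, was above the highest fold of this pair, 18.0.

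**Figure D3:**
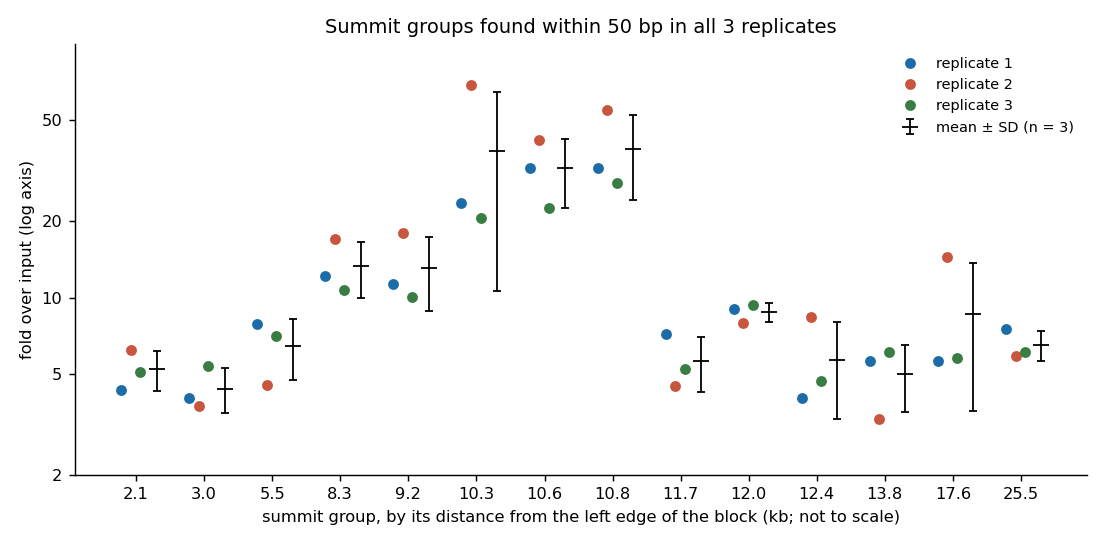
Fold over input on a log axis for the 14 summit groups that recur within 50 bp, each named by its distance in kb from the left edge of the block, with 1 point for each replicate and a bar for the mean and SD (n = 3). The 3 groups between 10.3 and 10.8 kb have means of 37.8, 32.3 and 38.5, the pair at 8.3 and 9.2 kb has means of 13.3 and 13.1, and the other 9 have means below 10.

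The remaining 9 groups had mean folds between 4.38 and 8.76. To the right of the wide peak's high summits, the group whose replicate 1 summit was at 6098920 had pileups of 26, 15 and 27 tags. Its folds were 9, 7.95 and 9.33, a mean of 8.76 ± 0.722 (SD, n = 3), the closest match between lists of all 14. The groups at 6098650 and 6099301, again by their replicate 1 summit, had folds of 7.17, 4.48 and 5.25 in the former and of 4, 8.34 and 4.67 in the latter. Their order of lists was thus different, with replicate 2 lowest in the former and highest in the latter. The summits of the latter, at 6099301, 6099269 and 6099251, spanned exactly the 50 bp allowed.

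In the left 6 kb there were 3 groups. The group at 6089024 had folds of 4.33, 6.22 and 5.10, the group at 6089916 had folds of 4, 3.75 and 5.38, and the group at 6092363 had folds of 7.85, 4.5 and 7.05. No list was highest in all 3. Further right, the group at 6100712 had folds of 5.61, 3.33 and 6.09. The group at 6104496 had folds of 5.63, 14.5 and 5.78, a mean of 8.64 ± 5.08 (SD, n = 3), and without replicate 2 its mean was 5.71. The last group, at 6112369, 6112378 and 6112399, had pileups of 14, 9 and 10 tags and folds of 7.5, 5.86 and 6.12. It stood alone, 7890 bp from its neighbour on the left. Pileups of this size are imprecise, since 9 tags have an exact 95% Poisson interval of 4.12 to 17.1, while 206 tags have one of 179 to 236. These intervals cover counting error only.

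Groups that just missed the limit numbered 15, with spans from 64 to 97 bp. The highest of them had its summits at 6099947, 6099980 and 6099911, a span of 69 bp. Its pileups were 42, 66 and 43 tags and its folds 19.5, 32.5 and 11.0, a mean of 21.0 ± 10.8 (SD, n = 3). It was thus higher than the pair of groups at 6095251 and 6096093, although it did not count as recurring. Another, with summits at 6110329, 6110308 and 6110247, had folds of 13.5, 9.71 and 10 and was the highest place in the right 15 kb of the block. These 2 were chosen after their values were seen.

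Across the 14 groups, replicates 1 and 3 were closer to each other in fold than to replicate 2. On log2 fold, Pearson's r between replicates 1 and 3 was 0.98. It was 0.86 between 1 and 2, and 0.89 between 2 and 3, and Spearman's rho was 0.95, 0.75 and 0.69 in the same order. All 3 values of r were lower without the 3 high groups, at 0.90, 0.52 and 0.58 over 11 groups. Replicates 1 and 3 were again the closest pair. With pileup over the genome-wide ChIP level in place of fold, r over the 14 groups was 0.97, 0.94 and 0.93. The pairs were nearly alike in these values, but the 3 high groups stood far above the others on that scale too. There, r without them was not computed, so whether the other 11 groups were as alike was not tested. The difference in log2 fold for a single group had an SD of 0.27 between replicates 1 and 3, 0.77 between 1 and 2 and 0.80 between 2 and 3. These values describe groups that share their libraries and 1 input, and groups are not replicates. Replicate 2 had the highest fold in 8 of the 14 groups, and replicates 1 and 3 in 3 each.

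Overlap of peaks, a looser match than that of summits, gave 58 merged regions in the block. A peak of every list was present in 21 of these (36.2%), against 18% of the 1776 merged regions of the series. Of the rest, 12 regions were in 2 lists and 25 in 1, and those in 1 list came from replicate 1 in 12 cases, from replicate 2 in 2 and from replicate 3 in 11. The share of 36.2% follows in part from how the block was drawn, around a run of regions with a peak in every list. The series count includes the block. Peaks also covered 46.2%, 39.1% and 47.9% of the block, and the overlap to be had from that density alone was not computed. The 21 regions were from 258 to 4253 bp wide, with a median of 512 bp, and 19 of them began in the first 25 kb. Yet 14 of the 21 held no summit group within 50 bp. The summits of highest fold in each list lay within 50 bp of each other in 1 of the 21, the region from 6112285 to 6112542 that holds the last group. Their median spread was 179 bp. Peaks of the 3 lists therefore overlapped in many places where their highest summits were not at the same position.

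The input background under the block was low. It is given here as a multiple of the genome-wide level, the number of tags expected if tags were spread evenly, and the peak caller's method does not let it fall below 1. Over the block's summits the 3 lists had medians of 1.58, 1.47 and 1.52. Over the summits outside the block the medians were 6.54, 4.24 and 8.77. Less than 2 times this level was found under 78.3%, 70.4% and 72.9% of the block's summits, against 30.5%, 34.2% and 21.1% of all summits in the lists. The highest backgrounds of the block, 7.45, 7.06 and 5.01 times that level, amount to few input tags, and 7.45 and 5.01 were under the first of the 3 high groups. Under most of the block's summits the input was thus below 2 times its genome-wide level. The copy number of the region in the ChIP animals was not tested, and a higher copy number and more binding per copy cannot be told apart in ChIP signal alone.

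The pileup itself was lower here than in peaks elsewhere. Its median in the block was 11, 12 and 13 tags, which is 16.4, 17 and 16.3 times the genome-wide ChIP level. Outside the block the medians were 21, 17 and 30 tags, or 31.3, 24.0 and 37.6 times that level. The block's higher median fold therefore stood on a lower median pileup and a lower input background in all 3 lists. Peaks in the block were wider, with median widths of 189, 242.5 and 176 bp against 129.5, 193 and 120 bp outside.

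Blocks drawn by the same joining of peaks, around 29 runs of at least 3 regions with a peak in every list, gave a scale for these values. Only 2 other blocks had a median input background below 2 times the genome-wide level. One, on chromosome II from 11756732 to 11762102, was 5.37 kb long, and the other, on chromosome III from 10904177 to 10909882, was 5.71 kb long. Median folds were 6, 5.86 and 6.06 on II and 5.15, 5.33 and 5 on III, and those of the block on IV, 5.50, 5.57 and 5.78, lay between them in each list. Summits per kb were 2.79, 2.79 and 5.59 on II and 2.1, 1.58 and 2.80 on III. Those on IV, 2.48, 1.46 and 3.48, lay between them in replicates 1 and 3 and below both in replicate 2. The block on IV stood apart from these 2 in its length and in its highest folds. Their highest folds were 12, 10 and 10.8 on II and 8.05, 6.67 and 11.5 on III, against 32.5, 69.0 and 28.3. They also had fewer summits, 15, 15 and 30 on II and 12, 9 and 16 on III, against 92, 54 and 129. A highest value tends to rise with the number of summits, and the part of this in the difference was not tested.

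The 2 next longest runs, of 7 regions each against 21 on IV, had another makeup. The block around the one on chromosome I, from 10945934 to 10953039, had median folds of 5.71, 5.68 and 5.74 over an input that stood at 11.9, 9.89 and 8.94 times its even level. Its summits recurred in 18 groups within 50 bp, which took up 62.1%, 90% and 50% of its summits. The block around the run on chromosome III, from 7405434 to 7452142, was 46.7 kb long, longer than that on IV, with median folds of 4.03, 4.5 and 4.56. Peaks covered 22.6%, 42.3% and 9.15% of it, and the input under it stood at 4.89, 4.24 and 8.51 times its even level. The 3 replicates thus differed more in cover there than on IV, where peaks covered 46.2%, 39.1% and 47.9%.

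**Figure D4:**
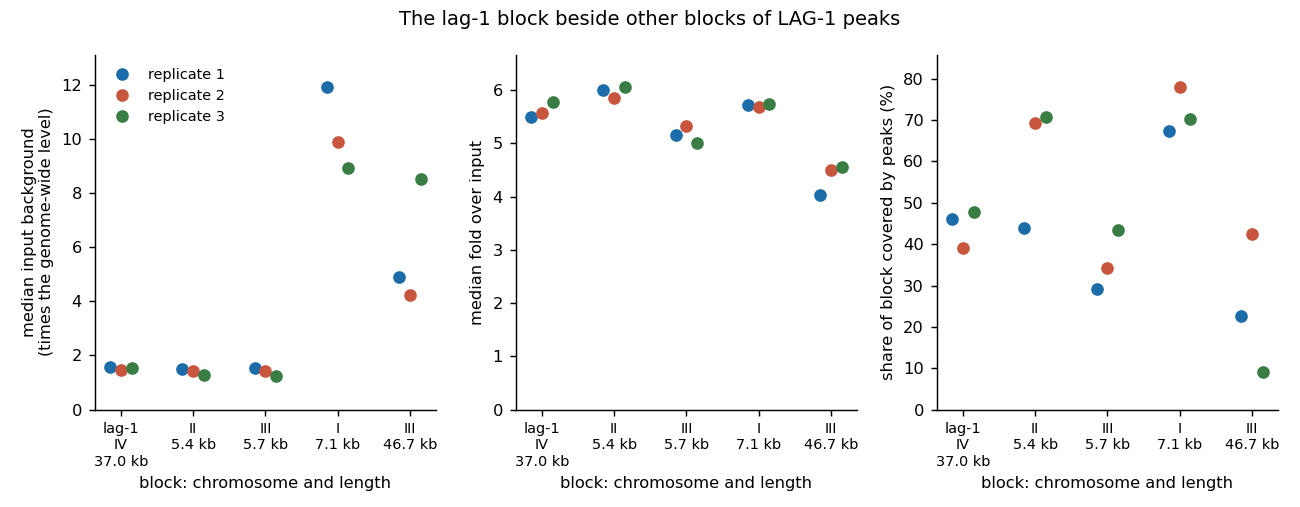
Median input background, median fold over input and share covered by peaks for the lag-1 block and 4 other blocks of LAG-1 peaks, with 1 point for each replicate. The lag-1 block and the blocks of 5.37 and 5.71 kb have backgrounds below 2 times the genome-wide level, and the blocks on I and the 46.7 kb block on III have backgrounds above 4 times that level at a similar or lower fold.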

How the data were processed

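LAG-1 ChIP-seq peak lists of 3 replicates were used, grouped by the sample titles. Per the file headers, the authors called each list with MACS 2.1.1.20160309 against the same input of 17914470 tags, sampled down to the size of the ChIP library, with 1 tag kept per position and fragment lengths of 77, 125 and 55 bp. The submitters' processing notes give the build ce10 and no source used here names the aligner. The deposited pileup is a signal, the count of extended tags at a summit. The deposited fold enrichment is a ratio to local input, and the deposited −log10 p-values and q-values were used to check and filter summits. All summits passed the series' thresholds, a fold above 2 and a false discovery rate below 0.05.

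Background was recovered from pileup and fold with the pseudocount of 1, and p-values rebuilt from it lay within 0.05 of the deposited −log10 p for 100%, 99.9% and 100% of summits. Summit groups were formed from the smallest span up, each summit used once, and checked on simulated lists. All groups were named, as there were at most 15, with the highest summit and the first and last peak of each list. Tools were Python 3.11.15, pandas 2.3.3, numpy 2.4.6, scipy 1.17.1 and matplotlib 3.10.9. Members, block limits and compared blocks were chosen with earlier results of these data known, and no test was run. Alternatives were other spans, filters, matches and left-out replicates. No sequence or ce10 annotation was used here.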

Additional observations from a re-analysis of the deposited data

How the results depend on the processing

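The number of summit groups depended on the span allowed. It was 14 within 50 bp, 4 within 25 bp and 29 within 100 bp, and 2 when only the highest summit of each peak entered. The share of block summits in groups moved with it, to 4.35%, 7.41% and 3.10% at 25 bp and to 31.5%, 53.7% and 22.5% at 100 bp in replicates 1, 2 and 3. With 1 replicate left out, between 26 and 45 groups were common to the other two. Chains in steps of 50 bp gave 20 groups, a fold of at least 3 gave 14 and a false discovery rate below 0.001 gave 13. Regions with a peak of every list fell from 21 to 12 at 50% reciprocal overlap, were 21 and 18 under the filters on fold and false discovery rate, and numbered 25 to 30 with 1 replicate left out. Medians of pileup over the genome-wide ChIP level were 16.4, 17 and 16.3, on another scale than fold. With the highest summit of each peak alone, the median fold was 6.06 in replicate 2 and 5.97 in replicate 3, and the median background was 1.49 in replicate 1 and 1.38 in replicate 3. Medians and cover were held to 1 SD between replicates, a narrow limit where the lists were close, and counts to a factor of 1.5, a wide one. For the mean fold of each group the limit was its SD over the 3 replicates. Leaving out 1 of 3 values can never move a mean that far. This limit therefore could not show whether a group's mean rested on 1 replicate. Without replicate 2 the mean fell from 37.8 to 22.1 in the group at 6097208 and from 8.64 to 5.71 in the group at 6104496. Depth limits the lower summits, whose pileups started at 5, 6 and 6 tags. Sampling error of the input was not computed. No paired analysis was possible because the ChIP replicates form a single group.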
